A study of Mus musculus with 18 samples.

Results

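Interferon-stimulated genes were followed across 18 mouse medulloblastomas, tumours of the cerebellum, each hybridised to 1 Affymetrix mouse Gene ST array. The genes were 49 named symbols from a list that was chosen with earlier results of these data known. Counts of members beside shares of all genes are therefore descriptions. Of these, 44 had a probe set of their own, out of 19938 genes on the array with such a probe set, and a gene with several was read from the one of highest mean, which among the members concerns Irf1 alone. Isg15, Ifi204, Gbp2 and Igtp share a probe set with another gene, and Ifi44 was not found under its symbol, so these 5 are not analysed here. The 44 genes fall into 8 roles, from the IFIT and ISG15 system to antigen processing.

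The tumours formed 5 groups. GFD-Smo;GFAP-cre (GFD-Smo, n = 4) and NG-Smo;Atoh1-CreER (NG-Smo, n = 4) were Smo tumours, and GFI-Ptch (n = 4), GFD-Ptch (n = 2) and NG-Ptch (n = 4, replicates 1, 2, 4 and 5) were Ptch tumours. Smo and Ptch are the signal transducer and the receptor of the Sonic hedgehog pathway. GFAP-cre places the Cre recombinase under the promoter of a glial and neural progenitor gene, and Atoh1-CreER under that of a granule neuron progenitor gene in a form that tamoxifen activates. Subtype and Cre driver coincide in the Smo model and cannot be told apart. What NG, GFD and GFI stand for is not explained by the labels, which also give no age, strain or further allele. A gender label is given, which the main fit left out and an alternative fit used as a term. GFI-Ptch replicate 4 is labelled as having progressed from another tumour with an NSG female as host, and is called the transplanted tumour here; NSG mice lack mature T, B and NK cells and keep macrophages.

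Interferons are secreted proteins that alert cells to infection. Interferon alpha and beta bind the Ifnar1 and Ifnar2 receptor chains, whose kinases Jak1 and Tyk2 signal through a complex holding Stat2 and Irf9 that binds a promoter element called ISRE. Interferon gamma acts through Ifngr1, Ifngr2, Jak1 and Jak2 and on another element called GAS. The genes so induced degrade viral RNA, block viral entry and budding, sense foreign nucleic acid and load peptides onto MHC class I, and in brain they respond in microglia, astrocytes, endothelium and neurons.

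Promoter windows were taken from RefSeq (build GRCm38.p6) for the 34 members that matched, to show the elements through which these genes are known to be induced. The 250 bases before each start were searched on both strands for the ISRE core, a pair of GAAA blocks with any 2 bases between them, and for GAS as TTCNNNGAA. The ISRE core was found in 12 of the 34 members (35.3%), against 3.46% of 27025 genes, and GAS in 7 members (20.6%), against 8.13% of genes. A match is a description of letters and not a shown binding site, and the windows of Psmb9 and Tap1, which are read in opposite directions, overlap. Printed 5′ to 3′ on the gene's strand, with the matched letters in capitals, are 60 bases of Ifit1 (chr19:34640777-34640836, plus strand), Ifit3 (chr19:34583365-34583424, plus strand), Rsad2 (chr12:26456521-26456580, minus strand), Irgm1 (chr11:48871421-48871480, minus strand) and Ifi203 (chr1:173942493-173942552, minus strand), each with the ISRE core. The window of Psmb8 (chr17:34198090-34198149, plus strand) holds a GAS match in its place. These 6 are shown because they hold a match and their levels are described below; Ifi203 has a further RefSeq start whose window holds none.
Ifit1: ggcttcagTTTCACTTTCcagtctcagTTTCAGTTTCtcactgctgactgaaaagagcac
Ifit3: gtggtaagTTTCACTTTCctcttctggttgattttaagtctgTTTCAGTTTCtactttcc
Rsad2: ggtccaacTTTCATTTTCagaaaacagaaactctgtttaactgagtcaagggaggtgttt
Irgm1: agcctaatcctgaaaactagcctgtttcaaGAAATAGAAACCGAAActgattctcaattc
Ifi203: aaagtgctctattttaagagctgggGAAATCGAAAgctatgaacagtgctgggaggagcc
Psmb8: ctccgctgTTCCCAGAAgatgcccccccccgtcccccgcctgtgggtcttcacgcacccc
In Ifit1, Ifit3 and Rsad2 the matches lie on the other strand, so they read TTTC. In Irgm1 the pair of matches share 4 bases.

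All levels below are the deposited log2 values, and changes are differences of group means on that scale. The arrays had medians of 7.736 to 7.868. As a check of the tissue, 10 granule neuron progenitor and medulloblastoma genes averaged 11.26 to 11.84 on every array. Genes with an adjusted p under 0.05 are described as called (limma, Benjamini-Hochberg over all 19938 genes). GFI-Ptch replicate 4 and NG-Smo replicate 4 stood apart from the rest, with the lowest array weights in limma, 0.175 and 0.264. The labels do not say that replicates came from separate animals, so the p-values cover just the variation among these samples. In RNA from whole tumours, fewer cells of a type and less RNA per cell cannot be told apart.

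The interferon-stimulated genes were lowest in GFD-Smo tumours and highest in GFI-Ptch tumours. The mean over the 44 genes was 7.42, 7.37, 7.39 and 7.39 in GFD-Smo, and 7.66, 7.69, 7.71 and 7.67 in NG-Smo. It was 7.97, 8.09, 7.81 and 8.49 in GFI-Ptch, 7.68 and 7.70 in GFD-Ptch, and 7.90, 7.53, 7.91 and 7.56 in NG-Ptch. The GFI-Ptch and NG-Ptch arrays overlapped on this mean, while every GFD-Smo array lay below the other 14 arrays. The group with the lowest mean was GFD-Smo for 36 of the 44 genes, against 31.4% of all genes. The group with the highest mean was GFI-Ptch for 33 of the 44, against 13.8% of all genes. GFD-Ptch was highest for 5 (40.0% of all genes), NG-Smo for 4 (13.8%) and NG-Ptch for 2 (10.6%).

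**Figure D1:**
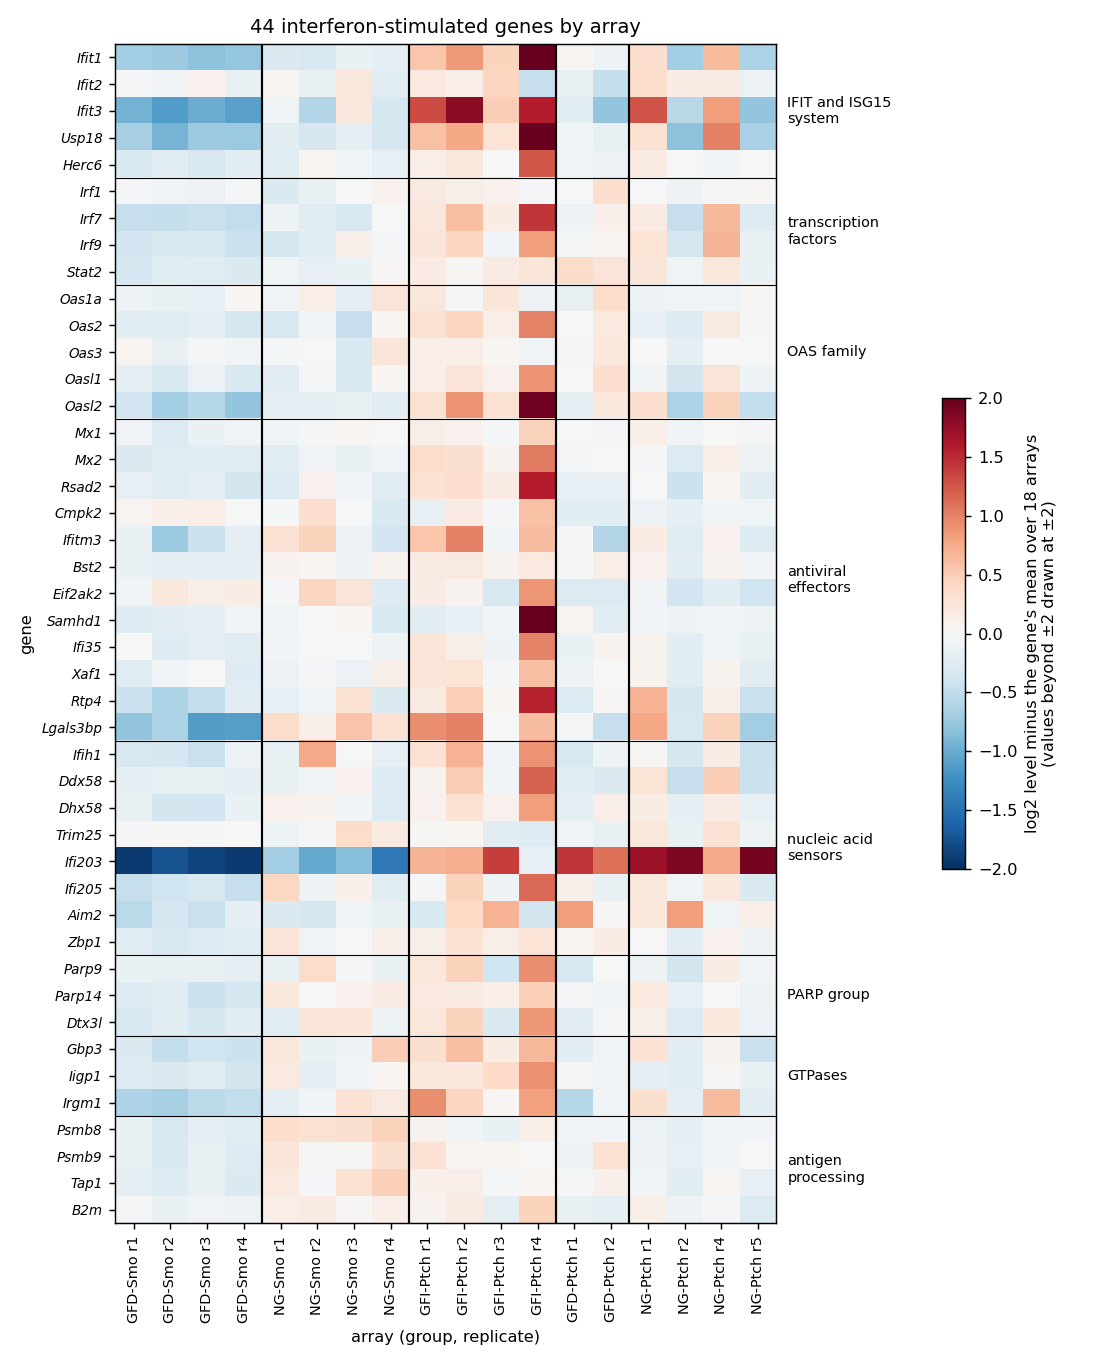
Log2 level of each of the 44 interferon-stimulated genes on each array, minus the gene's mean over the 18 arrays (colour, drawn to ±2). Rows are genes grouped by role and columns are arrays grouped by tumour; GFD-Smo columns are mostly blue, GFI-Ptch columns mostly red with replicate 4 darkest, and NG-Ptch replicates 1 and 4 are redder than replicates 2 and 5 for many rows.

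The genes varied more between tumours of a group in the Ptch model than most genes did. The median SD over the 44 genes was 0.077 in GFD-Smo, where that of all genes was 0.074, and 0.166 in NG-Smo, where that of all genes was 0.144. It was 0.393 in GFI-Ptch (all genes 0.142), 0.134 in GFD-Ptch (all genes 0.082) and 0.199 in NG-Ptch (all genes 0.095). An SD above 0.5 was seen for 14 of the 44 genes in GFI-Ptch (5.34% of all genes) and for 7 in NG-Ptch (0.86% of all genes). The gene with the largest SD was Usp18 in GFI-Ptch, at 1.18, and Ifit3 in NG-Ptch, at 1.01. Usp18 removes ISG15 from proteins and restrains signalling at Ifnar2, and Ifit3 is a partner of the RNA-binding protein Ifit1.

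**Figure D2:**
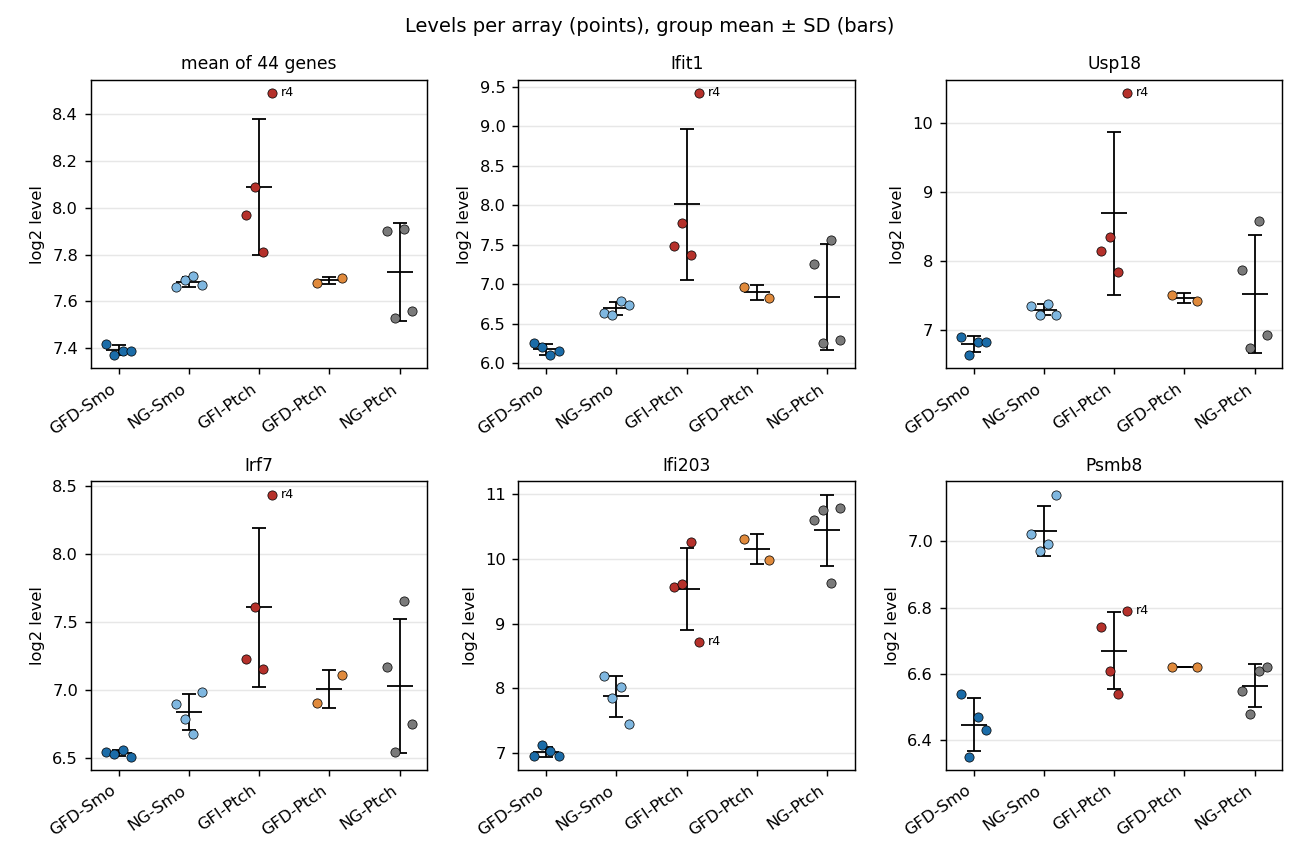
Log2 level on each array (points) with the group mean ± SD (bars) for the mean of the 44 genes and for Ifit1, Usp18, Irf7, Ifi203 and Psmb8; r4 is the transplanted GFI-Ptch tumour. GFD-Smo has the lowest group mean in every panel, with arrays close to or among those of NG-Ptch except for the mean and Ifi203. Ifi203 separates both Smo groups from the 3 Ptch groups, and Psmb8 is highest in NG-Smo.

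GFI-Ptch tumours were compared with NG-Ptch tumours to ask how the subtypes differ within the Ptch model. The members lay above 0 in 40 of 44 cases, with a median change of 0.362, where the median of all genes was 0.020. No single gene passed the test: limma called 0 of the 44 (0% of all genes were called in this comparison). At an unadjusted p under 0.05, 20 members were higher (3.6% of all genes) and 1 was lower (4.93%). Without the transplanted tumour 40 members lay above 0, and the median change was 0.19.

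Within the IFIT and ISG15 system, 3 of 5 genes had an unadjusted p under 0.05, all above 0. Ifit1, which binds the ends of viral RNA, stood at 7.48, 7.78, 7.37 and 9.42 in GFI-Ptch, against 7.26, 6.25, 7.56 and 6.29 in NG-Ptch (change 1.18 ± 0.37 SE, adjusted p = 0.345), and its change was 0.71 without the transplanted tumour. Ifit3 stood at 9.06, 9.55, 8.24 and 9.32 in GFI-Ptch, against 9.01, 7.20, 8.59 and 6.96 in NG-Ptch (change 1.10 ± 0.39 SE, adjusted p = 0.426). For both genes NG-Ptch replicates 1 and 4 lay within or near the range of the GFI-Ptch arrays, and replicates 2 and 5 lay below it. Usp18 averaged 8.70 ± 1.18 in GFI-Ptch, against 7.53 ± 0.85 for NG-Ptch (SD over 4 arrays each), and its change was 0.58 without the transplanted tumour, against 1.17 with it. Herc6, the ISG15 ligase of mice, had a change of 0.38, and 0.09 without that tumour.

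Among the transcription factors, 4 of 4 lay above 0 and 1 had an unadjusted p under 0.05. This was Irf7, which drives the interferon alpha genes, with 7.23, 7.61, 7.16 and 8.44 in GFI-Ptch, against 7.17, 6.55, 7.66 and 6.75 in NG-Ptch (change 0.58 ± 0.25 SE, adjusted p = 0.532). The groups overlapped, and the change was 0.30 without the transplanted tumour. Irf9 and Stat2, the partners in the ISRE-binding complex, had changes of 0.25 and 0.09, and without that tumour of 0.10 and 0.06. In the OAS family, some of whose products activate the nuclease RNase L, 5 of 5 lay above 0 and 3 had an unadjusted p under 0.05. Oas2 stood at 7.55, 7.68, 7.38 and 8.23 in GFI-Ptch, against 7.08, 6.98, 7.43 and 7.21 in NG-Ptch (change 0.54 ± 0.15 SE, adjusted p = 0.295), and 1 NG-Ptch array reached into the GFI-Ptch range. Its change was 0.36 without the transplanted tumour.

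The antiviral effectors lay above 0 in 12 of 12 cases, 7 of them with an unadjusted p under 0.05. Rsad2, also called viperin, makes a nucleotide that ends viral RNA chains. It stood at 7.58, 7.63, 7.46 and 8.87 in GFI-Ptch, against 7.30, 6.87, 7.34 and 7.09 in NG-Ptch, with no overlap (change 0.74 ± 0.23 SE, adjusted p = 0.332), and its change was 0.41 without the transplanted tumour. Ifitm3, which hinders the fusion of viruses with cell membranes, stood at 11.13, 11.58, 10.52 and 11.19 in GFI-Ptch, against 10.73, 10.33, 10.66 and 10.32 in NG-Ptch (change 0.59 ± 0.23 SE, adjusted p = 0.465). Its change was 0.57 without that tumour. Samhd1, which breaks down the building blocks of DNA, had a change of 0.47, and -0.07 without the transplanted tumour.

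The nucleic acid sensors were mixed, with 5 of 8 above 0. Ifih1, a sensor of long double-stranded RNA, had a change of 0.61 ± 0.22 SE (adjusted p = 0.426), and Zbp1, a sensor of left-handed nucleic acid, one of 0.26 ± 0.08 SE (adjusted p = 0.302) with groups that did not overlap. Ifi203, a member of the interferon-inducible family of DNA-binding proteins, lay the other way, at 9.56, 9.61, 10.26 and 8.72 in GFI-Ptch, against 10.60, 10.75, 9.63 and 10.79 in NG-Ptch (change -0.90 ± 0.28 SE, adjusted p = 0.345). The GTPases, which act on the vacuoles of intracellular pathogens, lay above 0 in 3 of 3 cases. Iigp1 stood at 6.11, 6.10, 6.27 and 6.81 in GFI-Ptch, against 5.72, 5.68, 5.92 and 5.74 in NG-Ptch (change 0.56 ± 0.13 SE, adjusted p = 0.190), and the groups did not overlap. In all, 3 of the 44 members had every GFI-Ptch array above every NG-Ptch array (2.05% of all genes), namely Iigp1, Rsad2 and Zbp1. The antigen processing genes had small changes, of 0.11 to 0.20.

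**Figure D3:**
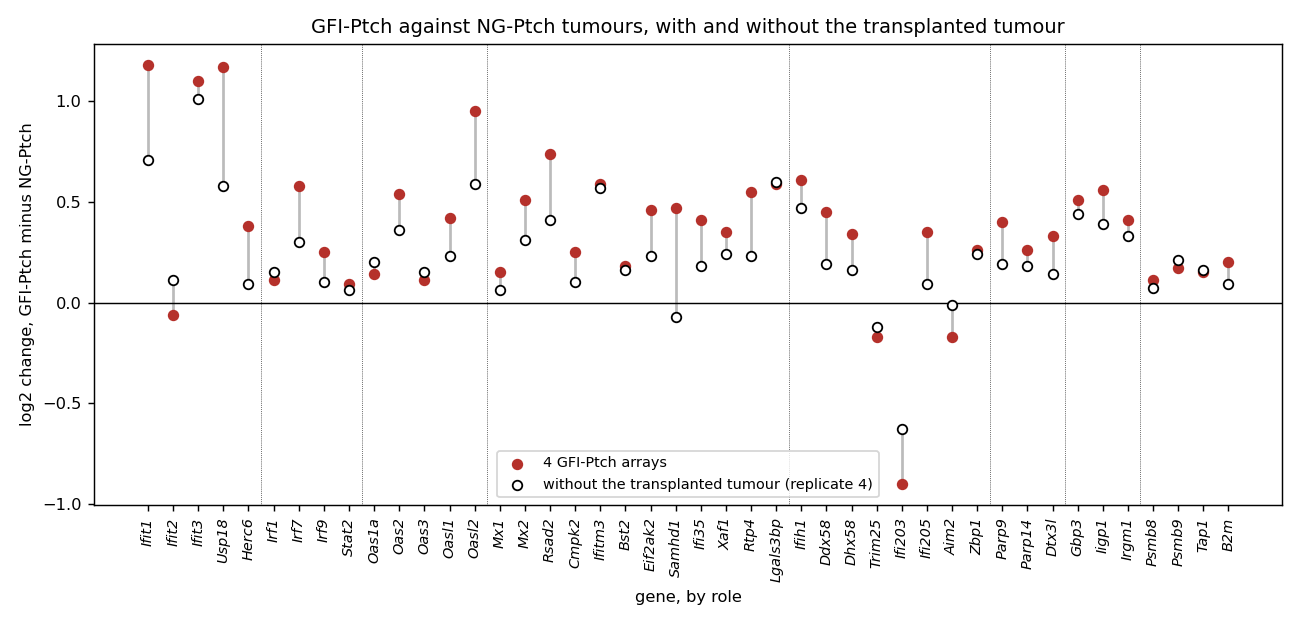
Log2 change of each of the 44 genes, GFI-Ptch minus NG-Ptch, with all 4 GFI-Ptch arrays (filled) and without the transplanted tumour (open); the line joins the 2 values of a gene. The open points lie above 0 for 40 genes and are closer to 0 for most, with the widest gaps at Usp18, Samhd1 and Ifit1.

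Markers of immune cells were read beside these values. The 16 microglia and macrophage genes averaged 9.24 ± 0.33 per array in GFI-Ptch and 9.24 ± 0.22 in NG-Ptch, with 8 of 16 above 0 and 0 called. The 13 T, B and NK cell genes averaged 6.35 to 6.61 in GFI-Ptch and 6.38 to 6.50 in NG-Ptch, with 7 of the 13 at a mean below 6.382, the highest lower quartile of any array. On the transplanted tumour these lists were at their lowest within GFI-Ptch, at 8.91 and 6.35. A list of 7 developing muscle genes reached 10.16 on a single GFI-Ptch array, while the lowest array of that group had 7.09. The list averaged 7.94 ± 1.48 in GFI-Ptch and 7.19 ± 0.12 in NG-Ptch, where the highest array had 7.37. The 6 oligodendrocyte progenitor genes all lay below 0, with a median change of -0.91, and each had an unadjusted p under 0.05 (4.93% of all genes), though 0 were called. The part of these cells in the result was not tested.

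The transplanted tumour carried the highest level of many of these genes. It lay above the other 17 arrays for 28 of the 44 members, against 13.15% of all genes, and above the mean of GFI-Ptch replicates 1 to 3 by more than 1 for 10 members, against 2.01% of all genes. The median difference from those 3 arrays was 0.51 over the members and -0.05 over all genes. As a single array it carries no test between conditions. Usp18 stood at 10.44 on it, against a mean of 8.12 on the other 3 GFI-Ptch arrays, and Samhd1 at 12.22, against 10.05. Ifit1 stood at 9.42, against 7.55. The differences of the other 7 genes past 1 were 1.45 for Oasl2, 1.31 for Rsad2 and for Rtp4, 1.13 for Herc6, 1.11 for Irf7, 1.03 for Ifi205 and 1.02 for Ddx58, the RNA sensor also called RIG-I. Ifi205 is among the 4 members whose mean lay below 6.382, with Mx1, Mx2 and Iigp1.

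The set did not move as a block on that array. Of the 44 members, 10 lay below the mean of the other 3 GFI-Ptch arrays, by 1.09 for Ifi203 (8.72, against 9.81), by 0.71 for Ifit2 (8.74, against 9.45) and by 0.63 for Aim2 (7.18, against 7.80). Ifit2 belongs to the same gene family as Ifit1, and Aim2 is the DNA sensor of an inflammasome. The genes of MHC class I peptide supply stayed close to the other 3 arrays, with differences of 0.16 for Psmb8, -0.14 for Psmb9 and -0.03 for Tap1, while B2m, the light chain of MHC class I, lay 0.42 higher.

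GFI-Ptch tumours were also set against GFD-Ptch tumours. The members lay above 0 in 37 of 44 cases, with a median change of 0.374 (all genes -0.023). Without the transplanted tumour the median change was 0.215. Again limma called 0 of the 44 (0.00502% of all genes), while 18 had an unadjusted p under 0.05 with a higher level in GFI-Ptch (4.23% of all genes) and 0 with a lower one (5.56%). In 17 members every GFI-Ptch array lay above both GFD-Ptch arrays (6.98% of all genes). Ifit3 stood at 9.06, 9.55, 8.24 and 9.32 in GFI-Ptch, against 7.53 and 6.96 in GFD-Ptch (change 1.79 ± 0.47 SE, adjusted p = 0.264). Irgm1, a regulator among the immunity-related GTPases, stood at 9.64, 9.14, 8.74 and 9.53 in GFI-Ptch, against 8.15 and 8.64 in GFD-Ptch (change 0.87 ± 0.25 SE, adjusted p = 0.317). Neither pair of groups overlapped. Both comparisons of GFI-Ptch share the same GFI-Ptch arrays. Here marker lists differed too. The microglia and macrophage list stood at 8.91 to 9.59 in GFI-Ptch and 8.66 to 9.02 in GFD-Ptch, with 15 of 16 genes above 0. All 7 astrocyte genes (median change 0.629) and all 7 developing muscle genes (median change 0.648) lay above 0. Below 0 lay 7 of the 8 endothelial genes, 11 of the 13 T, B and NK cell genes and all 6 neutrophil genes. In each of these lists 0 were called, and their part in the result was not tested.

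No member passed the test between GFD-Ptch and NG-Ptch tumours. The members split into 18 above 0 and 26 below, with a median change of -0.018 (all genes 0.035), and limma called 0 of the 44 (0.01% of all genes). An unadjusted p under 0.05 was reached by 1 member above 0 (10.4% of all genes) and 1 below (6.56%). Stat2 stood at 9.34 and 9.22 in GFD-Ptch, against 9.21, 8.89, 9.20 and 8.83 in NG-Ptch (change 0.25 ± 0.10 SE, adjusted p = 0.259). Ifit2 stood at 9.05 and 8.73 in GFD-Ptch, against 9.55, 9.35, 9.36 and 9.09 in NG-Ptch (change -0.45 ± 0.19 SE, adjusted p = 0.268). The microglia and macrophage list stood at 8.66 and 9.02 in GFD-Ptch, against 9.03 to 9.54 in NG-Ptch, with 15 of 16 genes below 0. All 7 astrocyte genes (median change -1.024) and all 6 oligodendrocyte progenitor genes (median change -0.741) lay below 0 too. Above 0 lay 12 of the 13 T, B and NK cell genes, 7 of the 8 endothelial genes and all 6 neutrophil genes. In each of these lists 0 were called, and their part was not tested. With 2 GFD-Ptch arrays the intervals were wide, that of Ifit1 running from -0.90 to 1.01.

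The NG-Ptch tumours differed among themselves. Replicate 4 was the highest of the 4 for 22 of the 44 genes (36.4% of all genes) and replicate 1 for 16 (17.3%), while replicate 2 was the lowest for 26 (33.5%) and replicate 5 for 14 (23.6%). Usp18 stood at 7.87, 6.75, 8.58 and 6.93 in replicates 1, 2, 4 and 5, and Lgals3bp, a secreted glycoprotein that binds galectins, at 10.05, 8.96, 9.73 and 8.58. The microglia and macrophage list stood at 9.54, 9.25, 9.13 and 9.03 on the same arrays, where replicate 4 was below replicates 1 and 2. Ifi203 was lowest on replicate 4.

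GFD-Smo tumours had lower interferon-stimulated genes than NG-Smo tumours, and here single genes passed the test. In limma, 6 of the 44 members fell and 0 rose, where 5.31% of all genes were called (2.81% higher and 2.49% lower). Without GFD-Smo replicate 3 the count was 3. The 6 were Psmb8, Psmb9 and Tap1 of antigen processing, the sensor Zbp1, the ADP-ribosyltransferase Parp14 and Lgals3bp. Of these, Psmb8, Tap1, Zbp1 and Parp14 were dim, with every group mean below 8.208, the median of all gene values. A filter on dim genes therefore left these genes untested. Of the 44, 41 lay below 0, with a median change of -0.211 (all genes -0.008), and 19 had every GFD-Smo array below every NG-Smo array (6.59% of all genes). At an unadjusted p under 0.05, 13 were lower (8.2% of all genes) and 0 higher (7.72%).

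Antigen processing held 3 of the 6 calls. Psmb8, a catalytic subunit of the immunoproteasome, stood at 6.54, 6.35, 6.47 and 6.43 in GFD-Smo, against 7.02, 6.97, 6.99 and 7.14 in NG-Smo (change -0.58 ± 0.06 SE, adjusted p = 5.45e-05). Psmb9, another such subunit, stood at 8.60, 8.45, 8.61 and 8.49 in GFD-Smo, against 8.99, 8.78, 8.77 and 9.07 in NG-Smo (change -0.37 ± 0.09 SE, adjusted p = 0.0303). The groups were apart for both, though the Psmb9 call held in only 12 of the 18 fits that left out 1 array, with an adjusted p of 0.1 without GFD-Smo replicate 2, and was lost with the replicate number as a block (adjusted p = 0.0831). Tap1, a subunit of the transporter that brings peptides to MHC class I, stood at 7.39, 7.31, 7.42 and 7.28 in GFD-Smo, against 7.76, 7.55, 7.86 and 8.05 in NG-Smo (change -0.46 ± 0.09 SE, adjusted p = 0.00634). B2m stood at 12.43, 12.34, 12.40 and 12.37 in GFD-Smo, against 12.61, 12.64, 12.50 and 12.61 in NG-Smo, and was not called (change -0.21).

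Lgals3bp had the largest change of the set, at 8.49, 8.65, 8.16 and 8.17 in GFD-Smo, against 9.65, 9.38, 9.85 and 9.56 in NG-Smo (change -1.24 ± 0.28 SE, adjusted p = 0.0161). Parp14 stood at 6.91, 6.93, 6.74 and 6.82 in GFD-Smo, against 7.38, 7.18, 7.26 and 7.34 in NG-Smo (change -0.44 ± 0.08 SE, adjusted p = 0.00552). Zbp1 stood at 7.27, 7.16, 7.21 and 7.23 in GFD-Smo, against 7.73, 7.41, 7.46 and 7.58 in NG-Smo (change -0.33 ± 0.08 SE, adjusted p = 0.0185). In each of these 3 genes the highest GFD-Smo array lay below the lowest NG-Smo array. The Lgals3bp call was lost without GFD-Smo replicate 3, at an adjusted p of 0.0543, and the Zbp1 call held in 15 of the 18 fits that left out 1 array, with 0.0639 without GFD-Smo replicate 2.

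Among the classical type I targets, Ifit1 and Ifit3 lay the same way but did not pass. Ifit1 stood at 6.25, 6.20, 6.10 and 6.15 in GFD-Smo, against 6.63, 6.61, 6.79 and 6.74 in NG-Smo (change -0.52 ± 0.37 SE). Ifit3 stood at 6.81, 6.63, 6.75 and 6.66 in GFD-Smo, against 7.66, 7.16, 7.98 and 7.39 in NG-Smo (change -0.84 ± 0.39 SE, adjusted p = 0.301). The arrays were apart for both genes, and the standard error is shared with the Ptch groups, in which these genes spread widely. In a fit of the GFD-Smo and NG-Smo arrays alone 13 members were called, all lower (5.85% of all genes were called in that fit), and the 7 added were Ifi203, Ifit1, Ifit3, Irf7, Irgm1, Oasl2 and Usp18. The GFD-Smo and NG-Smo means lay close for Ifit2 (9.17 and 9.18), Rsad2 (7.06 and 7.18) and Mx1 (5.67 and 5.79). The OAS family had 0 of 5 called and a median change of -0.107. Cmpk2, Irf1 and Eif2ak2 were the 3 members above 0, by 0.07, 0.02 and 0.01.

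**Figure D4:**
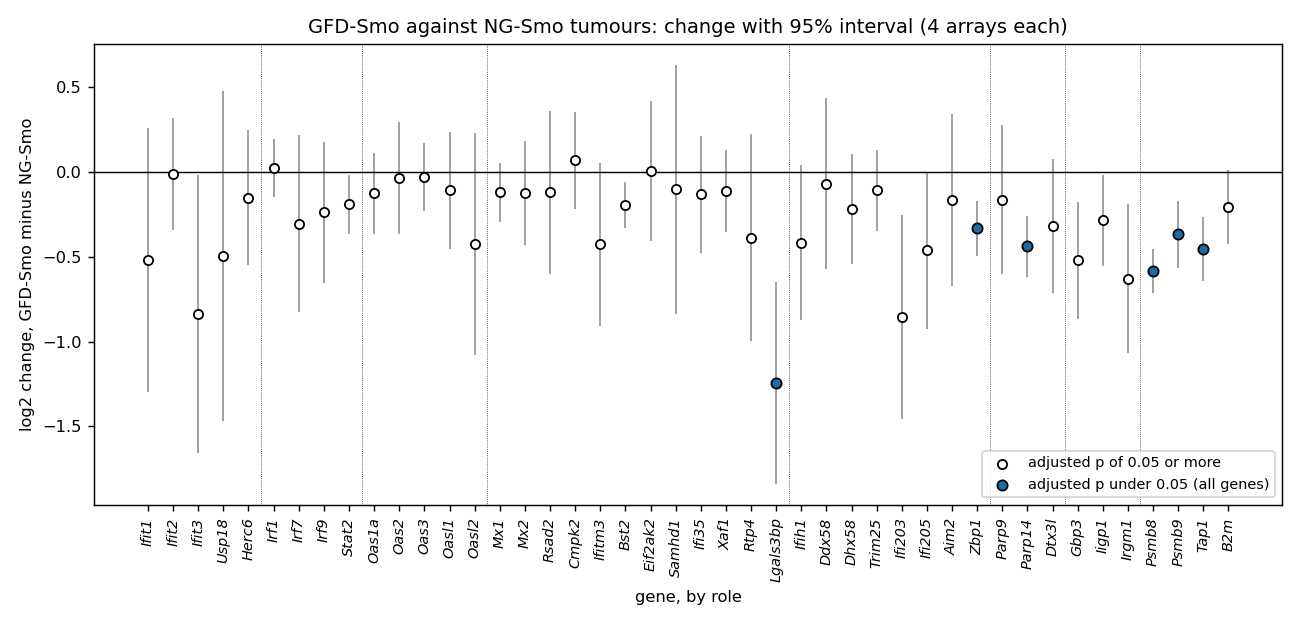
Log2 change of each of the 44 genes, GFD-Smo minus NG-Smo, with its 95% confidence interval from limma (4 arrays in each group), genes grouped by role. Filled points are the 6 genes called over all genes; 41 of the 44 points lie below 0.

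Marker lists moved here too. The microglia and macrophage list averaged 9.24 to 9.40 in GFD-Smo and 9.47 to 9.67 in NG-Smo, with 13 of 16 genes below 0 and 2 called lower, Ptprc (change -1.10) and Aif1 (change -0.35). At an unadjusted p under 0.05, 8 of the 16 were lower and 0 higher. The T, B and NK cell list averaged 6.38 to 6.48 in GFD-Smo and 6.46 to 6.65 in NG-Smo, with 11 of 13 below 0 and 0 called. Of the 7 astrocyte genes 5 were called higher (Gja1, Gjb6, Aqp4, Aldh1l1 and Gfap), with a median change of 1.52 over the 7, and of the 8 endothelial genes 1, Kdr (change 0.84). The part of these cells in the fall of the 6 members was not tested.

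The models were then compared within each subtype. In NG tumours, Smo against Ptch, the members had a median change of 0.028 (all genes 0.006), and limma called 2 of the 44 (1.04% of all genes), 1 higher (0.607%) and 1 lower (0.436%). Ifi203 fell, at 8.19, 7.85, 8.02 and 7.45 in NG-Smo, against 10.60, 10.75, 9.63 and 10.79 in NG-Ptch (change -2.56 ± 0.28 SE, adjusted p = 0.000572). Psmb8 rose, at 7.02, 6.97, 6.99 and 7.14 in NG-Smo, against 6.55, 6.48, 6.61 and 6.62 in NG-Ptch (change 0.47 ± 0.06 SE, adjusted p = 0.00214). The groups were apart for both, and both calls held in each of the 18 fits that left out 1 array. All 4 antigen processing genes lay above 0, with changes of 0.19 to 0.47, and Tap1 had an adjusted p of 0.111. The microglia and macrophage list stood at 9.47 to 9.67 in NG-Smo and 9.03 to 9.54 in NG-Ptch. Of its 16 genes 15 lay above 0 and 3 were called higher (Aif1, Cx3cr1 and Ptprc). All 8 endothelial genes lay above 0, and 9 of the 10 granule neuron progenitor and medulloblastoma genes lay below, with 0 called in both lists. The part of these cells was not tested.

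In GFD tumours, Smo against Ptch, the members had a median change of -0.234 (all genes -0.058). Here limma called 3 of the 44, all lower, where 15.6% of all genes were called (7.1% lower), so the share of members called lower was near that of all genes. Without the transplanted tumour in the shared fit 6 members were called, where 21.9% of all genes were, and without GFD-Ptch replicate 2 the count was 2, where 5% of all genes were called. Ifi203 stood at 6.96, 7.13, 7.03 and 6.96 in GFD-Smo, against 10.31 and 9.98 in GFD-Ptch (change -3.12 ± 0.35 SE, adjusted p = 5.54e-05). Stat2 stood at 8.61, 8.73, 8.73 and 8.68 in GFD-Smo, against 9.34 and 9.22 in GFD-Ptch (change -0.59 ± 0.10 SE, adjusted p = 0.00128). Zbp1, at the GFD-Smo levels given above, had 7.51 and 7.63 in GFD-Ptch (change -0.36 ± 0.09 SE, adjusted p = 0.0194). Its call was lost without either of the GFD-Ptch arrays, which leaves a single array in that group. It was also lost with the gender label as a term, at an adjusted p of 0.0819. The marker lists differed in direction here, where 8.5% of all genes were called higher and 7.1% lower. Of the 16 microglia and macrophage genes 6 were called higher (Csf1r, P2ry12, Cx3cr1, Tyrobp, Adgre1 and C1qa) and 0 lower. All 7 astrocyte genes were called higher (median change 2.44), and 2 of the 6 oligodendrocyte progenitor genes were (Olig1 and Ptprz1, median change 0.62). Of the 8 endothelial genes 7 lay above 0 with 1 called higher, and all 7 developing muscle genes lay above 0 with 0 called. The T, B and NK cell list had 12 of 13 genes below 0 and 1 called lower, Ncr1. All 6 neutrophil genes lay below 0 with 0 called. A mean below 6.382 was seen for 7 of those 13 genes, Ncr1 among them, and for 4 of those 6. Of all 19938 genes, 12131 lay below 0 in this comparison. Of 4 plasmacytoid dendritic cell genes 3 lay below 0 with 1 called lower. Of the 10 granule neuron progenitor and medulloblastoma genes 9 lay below 0 with 1 called lower. Their part in the result was not tested.

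Ifi203 had the widest range of the 44 genes, 3.83 over the 18 arrays. It averaged 7.02 ± 0.08 in GFD-Smo and 7.88 ± 0.31 in NG-Smo (SD, n = 4 each). It averaged 9.54 ± 0.63 in GFI-Ptch (n = 4), 10.14 ± 0.23 in GFD-Ptch (n = 2) and 10.44 ± 0.54 in NG-Ptch (n = 4). Every Smo array lay below every Ptch array. Ifi203 sits in a cluster of closely related genes, so its probe set may not read Ifi203 alone. Of the other measured genes of that family, Ifi205 had changes of 0.04 in NG tumours and -0.40 in GFD tumours, Smo minus Ptch. Aim2 had changes of -0.49 and -0.81, and 0 of these were called in the main fit. In other fits, Aim2 was called lower in GFD tumours, at an adjusted p of 0.0341 after median centring and 0.0224 with array weights. From the GFD arrays alone both Aim2 (adjusted p = 0.0253) and Ifi205 were called lower. The shares of all genes called in these fits are given below.

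Whether GFD minus NG differed between the Smo and the Ptch models was tested as the difference of both changes. The members lay below 0 in 39 of 44 cases (median -0.201, all genes -0.059), and limma called 4 of the 44, all lower (3.81% of all genes were called, 1.4% lower). They were Psmb8 at -0.64 ± 0.10 SE (adjusted p = 0.00272), Tap1 at -0.57 ± 0.14 SE (adjusted p = 0.0350), Zbp1 at -0.49 ± 0.12 SE (adjusted p = 0.0372) and Psmb9 at -0.55 ± 0.15 SE (adjusted p = 0.0492). In the Ptch model the same genes had GFD minus NG changes of 0.06 for Psmb8, 0.12 for Tap1, 0.16 for Zbp1 and 0.19 for Psmb9, and in the Smo model the falls given above. The Psmb8 call held in each of the 18 fits without 1 array, while those of Tap1, Zbp1 and Psmb9 held in 8, 7 and 5 of them. The count of 4 came to 1 without any one of NG-Ptch replicates 1, 2 and 5, GFD-Ptch replicate 2 and the 4 GFD-Smo arrays, and to 2 without GFD-Ptch replicate 1, NG-Smo replicate 1 or NG-Smo replicate 4. This difference reuses the arrays of both comparisons, and with them the split of Cre drivers. Marker lists differed in it too. Of the 7 astrocyte genes 6 were called higher (median 2.28). The T, B and NK cell genes lay below 0 in 13 of 13 cases (median -0.21), with 7 at an unadjusted p under 0.05 and 0 called. Of all 19938 genes, 12067 lay below 0, and 2176 did so at an unadjusted p under 0.05. A mean below 6.382 was seen for 7 of the 13 T, B and NK cell genes. Of the 16 microglia and macrophage genes 10 lay above 0 and 1 was called lower. Their part in the result was not tested.

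Genes of the pathway outside the set were read from lists. Of 41 further interferon-induced genes 31 were measured, and 9 fell in GFD-Smo against NG-Smo while 0 rose (median change -0.290), where 2.49% of all genes were called lower. They included the chemokines Cxcl10 (change -1.26, adjusted p = 0.00655) and Cxcl9 (change -0.77, adjusted p = 0.0214), Trim30a (-0.92), Sp100 (-0.70), Gbp8 (-0.59) and the myeloid transcription factor Irf8 (-0.54). Cxcl10 averaged 7.08 ± 0.12 in GFD-Smo and 8.34 ± 0.56 in NG-Smo (SD, n = 4 each). In GFI-Ptch against NG-Ptch, 29 of the 31 lay above 0 and 0 were called (median change 0.230), with 12 higher at an unadjusted p under 0.05 (3.6% of all genes).

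The interferon genes themselves did not follow this pattern in GFD-Smo against NG-Smo or in GFI-Ptch against NG-Ptch. Of 19 listed 15 were measured, 7 of them at a mean below 6.382, and their list mean ran from 6.62 to 6.98 over all arrays. The lowest of these was the transplanted tumour. Ifnb1 lay between 5.87 and 6.27 and Ifng between 6.87 and 7.09, and in GFD-Smo against NG-Smo and in GFI-Ptch against NG-Ptch 0 of the 15 were called. In GFD-Smo against GFD-Ptch, 13 of the 15 lay below 0 and 1 was called lower, where 7.1% of all genes were. Among 9 receptors and kinases, Ifngr1, a chain of the interferon gamma receptor, rose in GFD-Smo, with 10.21 ± 0.07 there and 9.67 ± 0.35 in NG-Smo (SD, n = 4 each; change 0.54 ± 0.13 SE, adjusted p = 0.0205). Ifnar1 averaged 10.43 ± 0.08 in GFD-Smo and 10.36 ± 0.09 in NG-Smo and was not called.

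**Figure D5:**
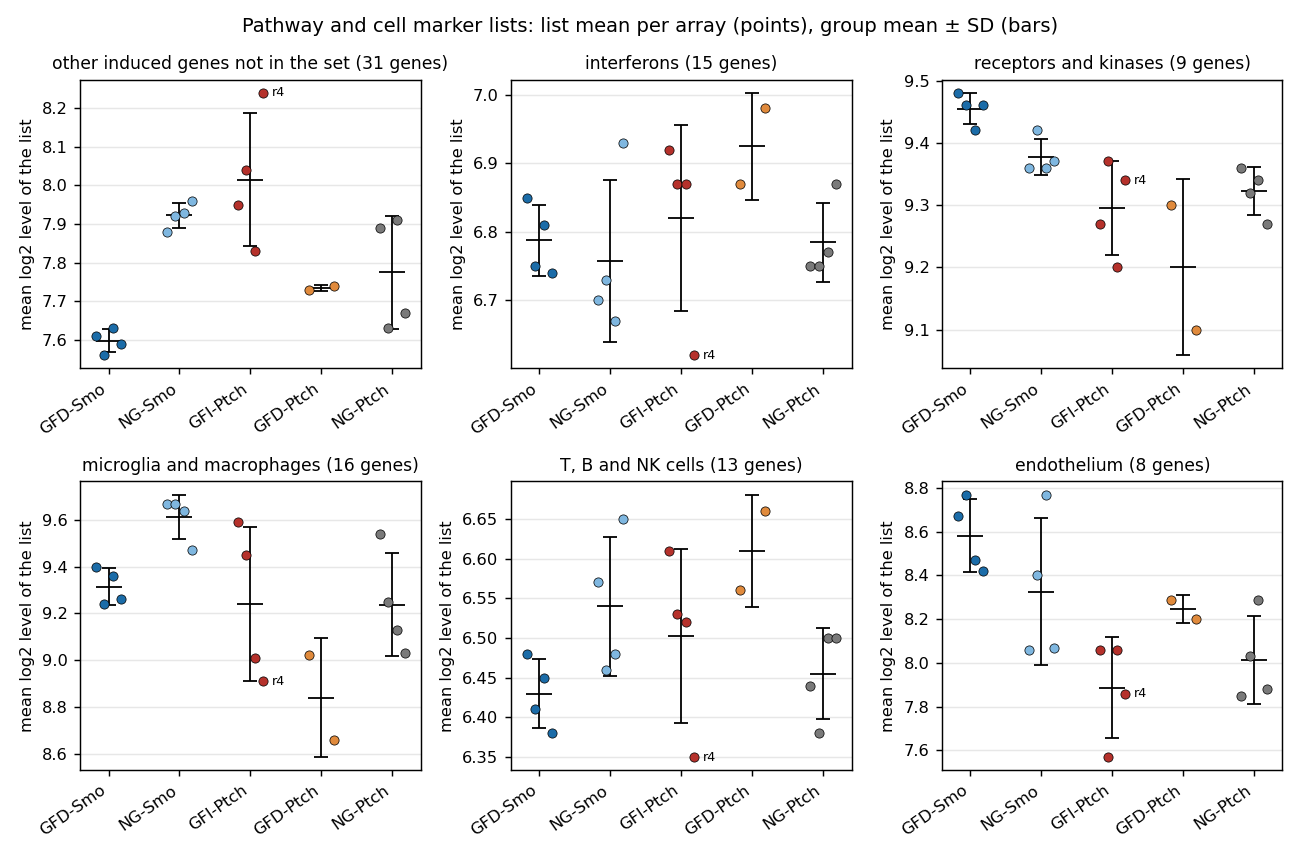
Mean log2 level of 6 gene lists on each array (points) with the group mean ± SD (bars): 31 further interferon-induced genes, 15 interferons, 9 receptors and kinases, and markers of microglia, of T, B and NK cells and of endothelium; r4 is the transplanted GFI-Ptch tumour. The further induced genes lie lowest in GFD-Smo, at 7.56 to 7.63, while the receptors and kinases lie highest there, at 9.42 to 9.48.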

How the data were processed

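RNA from 18 medulloblastomas had been labelled with biotin and hybridised to 1-colour arrays, per the labels' protocols. The authors deposited log2 values for 35556 probe sets, made with Partek 6.6 per the submitters' processing notes; background correction, summary of probes and scaling between arrays are not given in the sources used here. Of the probe sets, 21789 had 1 gene symbol in the platform annotation, 1621 several and 12146 none, and only those with 1 were kept. No value was changed.

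A mean for each of the 5 groups was fitted over all 18 arrays with limma 3.58.1 in R 4.3.3 (13 residual and 2.448 prior degrees of freedom), and 7 comparisons were tested, two-sided. The script was tested on simulated data. Figures and counts were made with Python 3.11.15. Precision is limited by the number of arrays. Every member could be named, with per-array values for a fixed list of members, for the 8 members whose group means were widest apart and for called members; from other lists, up to 6 called genes a list and comparison could be named, and Ifnb1, Ifng and the interferon receptors at any value. The members and lists were chosen with earlier results of these data known. Arrays with the same replicate number did not deviate together, with 3 of 29 pairs correlated above 0.1, so the numbers were not used as pairs. Alternatives were quantile normalization, median centring, a filter on dim genes, the mean of all probe sets of a gene, the gender label or the replicate number as a term, array weights, both arrays that stand apart left out, only the arrays compared, and each array left out.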

Additional observations from a re-analysis of the deposited data

Results flagged for a closer look

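Of 180 groups of 4 arrays tested for a single array far from the other 3 (44 members and their mean in 4 groups), 7 were marked, where chance marks about 1 in 20. On the transplanted tumour, GFI-Ptch replicate 4, Samhd1 stood at 12.22 (the other 3 at 9.98 to 10.15), Rsad2 at 8.87 (7.46 to 7.63) and Parp14 at 7.64 (7.30 to 7.36). In NG-Ptch, Ifi203 stood at 9.63 on replicate 4 (10.60 to 10.79), Oas1a at 7.34 on replicate 5 (7.22 to 7.24) and Oas3 at 6.67 on replicate 2 (6.84 to 6.86). In NG-Smo, B2m stood at 12.50 on replicate 3 (12.61 to 12.64). The GFD minus NG change differed between the Smo and Ptch models, by limma's test of the difference, for Psmb8 (-0.64, adjusted p = 0.00272), Tap1 (-0.57, adjusted p = 0.0350), Zbp1 (-0.49, adjusted p = 0.0372) and Psmb9 (-0.55, adjusted p = 0.0492).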

How the results depend on the processing

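Counts of members called are given with the share of all genes called in the same fit. GFD-Smo against NG-Smo gave 6 (5.31%), but 2 with a filter on dim genes (7.37%, 16 members tested) and 13 from its own arrays alone (5.85%), and 3 to 8 with 1 array left out. GFD-Smo against GFD-Ptch gave 3 (15.6%), but 5 after quantile normalization (18.2%), 10 after median centring (34.2%), 9 with array weights (29.6%), 9 without GFI-Ptch replicate 4 and NG-Smo replicate 4 (29.9%), 23 from its own arrays alone (33.6%; 2 of the 23 higher), and 2 to 6 with 1 left out. The difference between models gave 4 (3.81%), but 7 after median centring (6.04%), 1 with the dim filter (6.52%), 1 with the gender label (0.943%), 1 with the replicate block (2.09%), and 1 to 5 with 1 left out. NG-Smo against NG-Ptch gave 2 (1.04%), but 1 with the dim filter (1.53%) and 2 to 3 with 1 left out. GFI-Ptch against NG-Ptch gave 0 (0%), but 2 with array weights (0.903%; Oas2 and Iigp1, higher). For the first 3 of these the highest count with 1 array left out came without the transplanted tumour. The replicate block gave 6 for GFD-Smo against NG-Smo, 5 of them shared (Psmb9 was lost and Ifi203 added), 3 for GFD-Smo against GFD-Ptch and 2 for NG-Smo against NG-Ptch, and 0 for the comparisons within the Ptch model. GFI-Ptch against GFD-Ptch and GFD-Ptch against NG-Ptch stayed at 0 throughout. The causes of these shifts were not tested, beyond the fewer genes the dim filter tests. Under these alternatives no change of a member with an unadjusted p under 0.05 turned its sign.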

Other observations

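Genes that sense nucleic acid upstream of interferon were read as well. In GFD-Smo against NG-Smo, 3 of 14 fell and 0 rose (limma; 2.49% of all genes were called lower), namely the kinase Ikbke (change -0.45, adjusted p = 0.00274), the transcription factor Irf5 (-0.29, adjusted p = 0.00818) and the Toll-like receptor adaptor Myd88 (-0.47, adjusted p = 0.0126). In GFD-Smo against GFD-Ptch, 4 rose and 1 fell, where 8.5% of all genes were called higher and 7.1% lower, so that the share lower was near that of all genes. The RNA-sensing receptors Tlr7 (0.92) and Tlr3 (0.83), the mitochondrial adaptor Mavs (0.60) and Irf3 (0.41) were higher, and Sting1, the adaptor of cytosolic DNA sensing, was lower (-1.32, adjusted p = 0.0420).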
